A study of Danio rerio with 6 samples.

Results

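The germ plasm and oocyte mRNAs examined here are 7 of the 32054 genes counted by RNA-seq in zebrafish embryos at 4 hpf, chosen by their Ensembl identifiers: ddx4 (ENSDARG00000014373), nanos3 (ENSDARG00000068255), dazl (ENSDARG00000036214), tdrd7a (ENSDARG00000032808), piwil1 (ENSDARG00000041699), lmnl3 (ENSDARG00000007751) and ENSDARG00000045139. The last identifier was taken up under the name dnd1, but the gene name table and the study's own annotation both pair it with ca7, a carbonic anhydrase, which interconverts carbon dioxide and bicarbonate. They pair dnd1 with ENSDARG00000022813. ENSDARG00000045139 is therefore called ca7 throughout and is not a germ plasm gene by its name, and the values of dnd1 are given beside those of the 7 members. The libraries came from pools of whole embryos injected with either mondoa-mo, a morpholino that blocks translation of mondoa (mlxip), or mondoa-mis, its mismatch control, and each group had 3 libraries. The wild-type fish of the study descended from the AB or the golden strain, and embryos of both groups were age-matched and taken when controls had reached sphere stage. An uninjected group was not analysed here. The comparison asks which of these mRNAs differed when mondoa was knocked down, shortly before epiboly.

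Zebrafish germ plasm is a maternally supplied aggregate of RNA and protein that is inherited by a few cells of the blastula, the primordial germ cells. Its mRNAs are made in the oocyte and are protected in the germ cells, while the same mRNAs in somatic cells are degraded as the embryo switches from maternal to zygotic transcripts. Part of this clearance runs through the microRNA miR-430, which recruits the machinery that shortens poly(A) tails. The RNA-binding proteins Dnd1 and Dazl counteract it on germ plasm mRNAs. In counts from whole embryos, fewer cells with an mRNA and less of the mRNA per cell cannot be told apart. Because the libraries sampled polyadenylated RNA, a change in poly(A) tail length may also alter a count, and this was not tested.

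Total counts per library lay between 20685326 and 32100726. Levels are in CPM, counts relative to the TMM-scaled total of their library, and differences between the groups were tested with the quasi-likelihood method of edgeR, with p-values adjusted over all 15511 genes that passed the filter on low counts. The targeted transcript, mlxip, was measured at 278, 273 and 267 CPM in mondoa-mis and at 298, 327 and 349 CPM in mondoa-mo, a rise of 0.25 on the log2 scale (adjusted p = 0.0074). A translation-blocking morpholino acts on the protein, so this level does not check the labels. The blastula factors nanog, pou5f3 and sox19b had at least 593 CPM in every library. The level of nanog rose from 1070 ± 26.5 to 1198 ± 76 CPM (adjusted p = 0.033). The adjusted p-values of pou5f3 and sox19b were 0.14 and 0.51. Of the other blastula markers, sox2 stayed under 1 CPM throughout and sox3 rose from 107 ± 3.50 to 249 ± 25.0 CPM (adjusted p = 2.2e-06). All 4 ovarian follicle markers that could be matched stayed under 1 CPM. The summed level of the 7 enveloping layer markers was 188 to 197 CPM in mondoa-mis and 100 to 159 CPM in mondoa-mo, with krt5 and krt92 at or below 1.50 CPM in every library. Its member grhl3 fell from 117 ± 3.07 to 31.8 ± 3.01 CPM and cldne rose from 17.6 ± 0.216 to 39.3 ± 8.34 CPM (adjusted p = 3.5e-07 and 0.00012). Since grhl3 made up most of the sum in mondoa-mis, the lower sum does not describe the other markers of this layer. The most abundant keratin, krt18a.1, had 31.45 ± 0.710 and 37.3 ± 10.1 CPM (adjusted p = 0.25). The adjusted p-values of krt4 and krt8 were 0.17 and 0.18. The sum of the 6 yolk syncytial layer markers was 13.8 to 15.3 against 16.9 to 31.0 CPM. Of these, mxtx1 rose from 6.24 ± 0.477 to 13.5 ± 3.78 CPM and gata5 fell from 1.10 ± 0.232 to 0.290 ± 0.329 CPM (adjusted p = 0.0013 and 0.021). The fall of gata5 rests on only 2 to 33 counts a library. The adjusted p of mxtx2 was 0.47, and slc26a1, hnf4a and gata6, at or below 1.42 CPM in every library, did not pass the filter. Within mondoa-mo, replicate 3 stood apart from replicates 1 and 2 for krt4, at 13.1 CPM against 5.79 and 3.87 CPM. The same held for krt8, at 14.6 against 6.53 and 7.55 CPM, and for mxtx1, at 17.7 against 10.4 and 12.4 CPM. Replicate 3 was also the highest mondoa-mo library for cldne, at 48.8 against 36.1 and 33.1 CPM, and for krt18a.1, at 46.7 against 38.6 and 26.7 CPM. Of all markers of both layers, only grhl3 was not highest there, at 32.6 against 34.4 and 28.5 CPM. Neither the cause of this difference nor the part of these layers in the results below was tested.

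All 7 members passed the filter and all had at least 502 counts in each library. In mondoa-mo, 5 of the 7 changed (adjusted p under 0.05), where 32.3% of all genes tested changed. By level in CPM per kb, the members lay at percentiles 64.3 to 91.2 of the genes tested. Small changes are harder to call in genes with fewer counts, and the shares over all genes were not matched for level. The genes ca7, dazl, ddx4 and tdrd7a rose, in a direction taken by 16.9% of all genes tested, and lmnl3 fell, in a direction taken by 15.4%. The genes nanos3 and piwil1 did not pass. For all 7, the libraries of one group lay wholly above those of the other, which was also true of 47.8% of all genes tested. They were higher in mondoa-mo for 6 members (24.3% of all genes) and lower for lmnl3 (23.5%). The median log2 fold change was 0.28 over the members and 0.0027 over all genes tested. The counts and the median of the members include ca7, which is not a germ plasm gene by its name and rose the most.

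**Figure D1:**
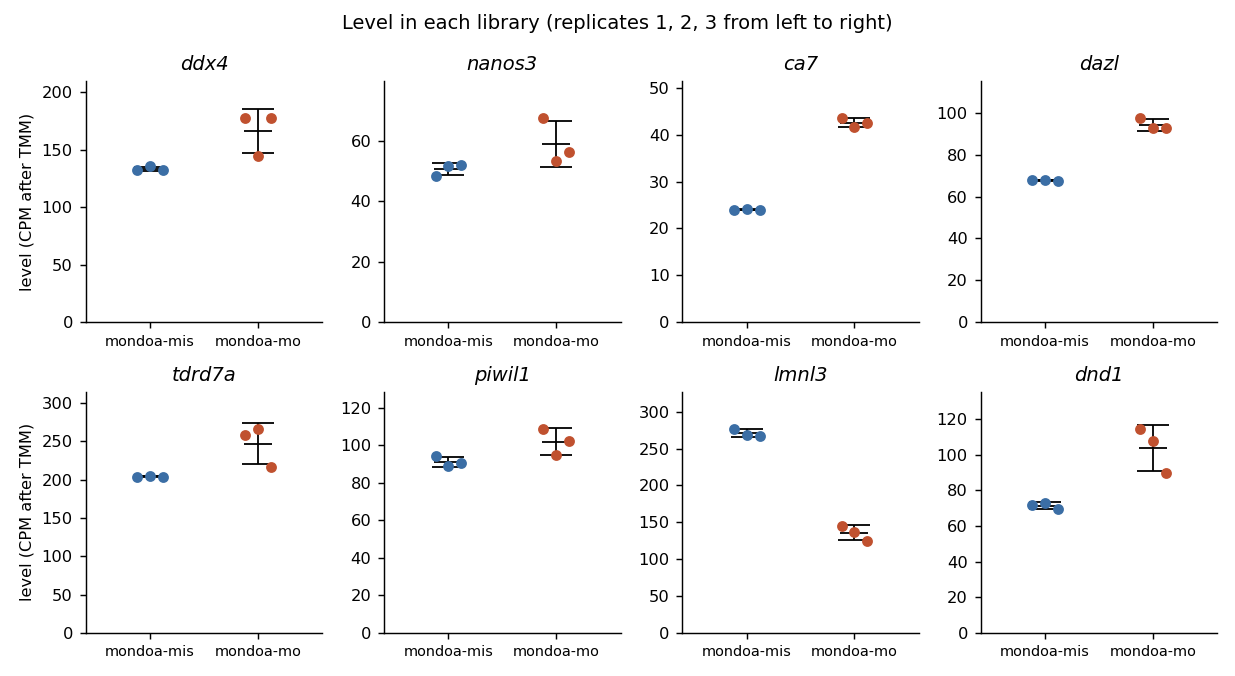
Level of each member and of dnd1 in CPM after TMM normalization (vertical axis, from 0) in each of the 3 mondoa-mis (blue) and 3 mondoa-mo libraries (red), with the group mean and SD in black. The mondoa-mo libraries of lmnl3 sit between 124 and 145 CPM, all below the mondoa-mis libraries, and those of the other 7 genes sit above their mondoa-mis libraries.

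The mRNA of ddx4 encodes Vasa, an RNA helicase of the DEAD-box family and the classical marker of germ plasm. Its level was 132, 135 and 132 CPM in mondoa-mis replicates 1, 2 and 3 and 178, 144 and 177 CPM in mondoa-mo replicates 1, 2 and 3. Replicate 2 of mondoa-mo lay close above the controls, and the other mondoa-mo libraries lay well above them. Mean levels of 133 ± 1.79 and 166 ± 19.2 CPM (SD, n = 3 libraries per group) gave a log2 fold change of 0.32 (standard error 0.0746, adjusted p = 0.0083). The call held with each library left out, with adjusted p-values up to 0.041.

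Dazl is an RNA-binding protein that promotes translation of germ cell mRNAs. Its transcript had 67.7, 68.1 and 67.6 CPM in mondoa-mis and 97.6, 92.5 and 92.7 CPM in mondoa-mo. The gap between the groups was many times the spread within either. This spread was the smallest among the germ plasm mRNAs of the members, with SDs of log2 CPM of 0.0054 and 0.044. At 1422 counts or more a library, the spread in mondoa-mis was below counting noise, so it is not a trait of the transcript. Its log2 fold change of 0.48 (standard error 0.0495, adjusted p = 7.6e-05) lay between 0.43 and 0.49 in all 13 alternative fits.

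The gene dnd1 encodes the RNA-binding protein Dead end, which germ cells need to survive and keep their fate. It had 71.8, 73.1 and 69.3 CPM in mondoa-mis and 115, 108 and 89.7 CPM in mondoa-mo. All mondoa-mo libraries were above the controls, and replicate 3 was the lowest of them. Its log2 fold change of 0.54 (standard error 0.0825, adjusted p = 0.00077) held in every alternative fit, with a range from 0.47 to 0.64.

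Tudor domain containing 7a, encoded by tdrd7a, shapes the granules of germ cells. Its level was 204, 205 and 204 CPM in mondoa-mis and 259, 267 and 216 CPM in mondoa-mo. Here replicate 3 of mondoa-mo was the one close to the controls. The log2 fold change of 0.28 (standard error 0.0705, adjusted p = 0.014) did not pass when any one of mondoa-mis replicates 1, 2 and 3 or mondoa-mo replicate 2 was left out, with adjusted p-values from 0.052 to 0.055.

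Nanos3 is an RNA-binding repressor of translation required for germ cell survival. Its mRNA had 48.2, 51.4 and 52.0 CPM in mondoa-mis and 67.5, 53.1 and 56.2 CPM in mondoa-mo. Only replicate 1 of mondoa-mo lay clearly above the controls. Its log2 fold change of 0.23 had a 95% interval from 0.03 to 0.42, and the adjusted p-value was 0.073. This p-value was 0.034 without mondoa-mo replicate 2 and 0.049 without mondoa-mo replicate 3, and up to 0.23 with another library left out.

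The gene piwil1 encodes Ziwi, an Argonaute family protein that binds piRNAs and silences transposons in the germ line. Its level was 94.2, 89.0 and 90.7 CPM in mondoa-mis and 109, 94.6 and 102 CPM in mondoa-mo, so that the lowest mondoa-mo library exceeded the highest control by under 1 CPM. Its log2 fold change of 0.16 had a 95% interval from 0.03 to 0.29 (adjusted p = 0.067). Without mondoa-mo replicate 2 the adjusted p-value was 0.021. This p-value was 0.047 both with the replicate number as a block and with a separate spread for each group.

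The carbonic anhydrase transcript ca7 had 24.04, 24.12 and 23.86 CPM in mondoa-mis and 43.6, 41.6 and 42.6 CPM in mondoa-mo. No other member rose as much, and the libraries of each group lay close together. In both groups they lay closer than counting noise would give, so this closeness is not a trait of the transcript. Its rise of 0.83 on the log2 scale (standard error 0.0629, adjusted p = 1.1e-05) ranked 393 by size among the 2621 genes that rose.

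Lamin L3, encoded by lmnl3, belongs to the intermediate filament proteins that line the nuclear envelope, and its counterpart in frogs is the main lamin of the oocyte. It was the only member that fell. Its level was 277, 269 and 268 CPM in mondoa-mis and 145, 137 and 124 CPM in mondoa-mo, 0.5 times the control level. No mondoa-mo library came near the controls. This was a log2 fold change of -1.0 with a standard error of 0.0575 (adjusted p = 2.2e-06), between -1.05 and -0.94 in all alternative fits, and it ranked 364 by size among the 2396 genes that fell. For RT-qPCR the study had drawn lmnl3 at random from the genes it called changed in these same libraries. The paper reports that the RT-qPCR of this subset bore out its RNA-seq data, without a value for lmnl3 in its text.

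The 3 mondoa-mo libraries differed more from each other than the 3 mondoa-mis libraries for each of the 7 members. Chi-squared per degree of freedom sets the count differences between a pair of libraries against counting noise. It was 1.24 to 1.48 within mondoa-mis and 7.16 to 10.7 within mondoa-mo. The mondoa-mis libraries thus differed little beyond counting noise. Their spread may understate that between independent pools of embryos, which was not tested. Across 7060 genes averaging 500 counts or more, the median SD of log2 CPM was 0.0358 in mondoa-mis and 0.0936 in mondoa-mo. In mondoa-mo, ddx4, nanos3 and tdrd7a had SDs of 0.172, 0.181 and 0.163, well above this median, and dnd1 had 0.185. The SDs of lmnl3 and piwil1 were 0.111 and 0.102. The SDs of ca7 and dazl, at 0.0343 and 0.044, were below it, and that of ca7 was below counting noise at its counts. The libraries also deviated differently from gene to gene. The mondoa-mo library nearest to the mondoa-mis mean was replicate 2 for 5 of the 7 members, replicate 3 for tdrd7a and replicate 1 for lmnl3. Replicate 2 was nearest for 45.7% of all 5017 genes that changed and for 41.1% of all genes tested. For dazl, mondoa-mo replicates 2 and 3 were nearly level, at 92.5 and 92.7 CPM.

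Because a shift in normalization would move all members alike, each was also set against ddx4 within its own library. The log2 ratio of lmnl3 to ddx4 was 1.07, 0.99 and 1.02 in mondoa-mis and -0.29, -0.07 and -0.51 in mondoa-mo, so that lmnl3 had more counts than ddx4 in every control and fewer in every morphant library. The mean ratio dropped by 1.32 on the log2 scale. The ratio of ca7 to ddx4 was higher in mondoa-mo by 0.51, and that of dazl to ddx4 by 0.16, without overlap between the groups for either. Without mondoa-mo replicate 2 the dazl difference was 0.075, and with any other library left out it was 0.153 to 0.223. The ratio of piwil1 to ddx4 was lower by 0.16, also without overlap. The level of piwil1 itself was not lower, since its log2 fold change was 0.16 and that of ddx4 was 0.32. Against the geometric mean of the members instead of ddx4, the piwil1 difference was -0.023. For these 4 ratios to ddx4 the exact two-sided permutation p was 0.1, the smallest that 3 against 3 libraries allow. The ratios of nanos3, tdrd7a and dnd1 overlapped, with differences of -0.10, -0.04 and 0.22 and exact permutation p-values of 0.5, 0.7 and 0.4. That of tdrd7a was 0.098 without mondoa-mo replicate 3 and -0.202 without mondoa-mo replicate 2, and that of dnd1 was 0.093 without mondoa-mo replicate 2 and 0.374 without mondoa-mo replicate 3.

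**Figure D2:**
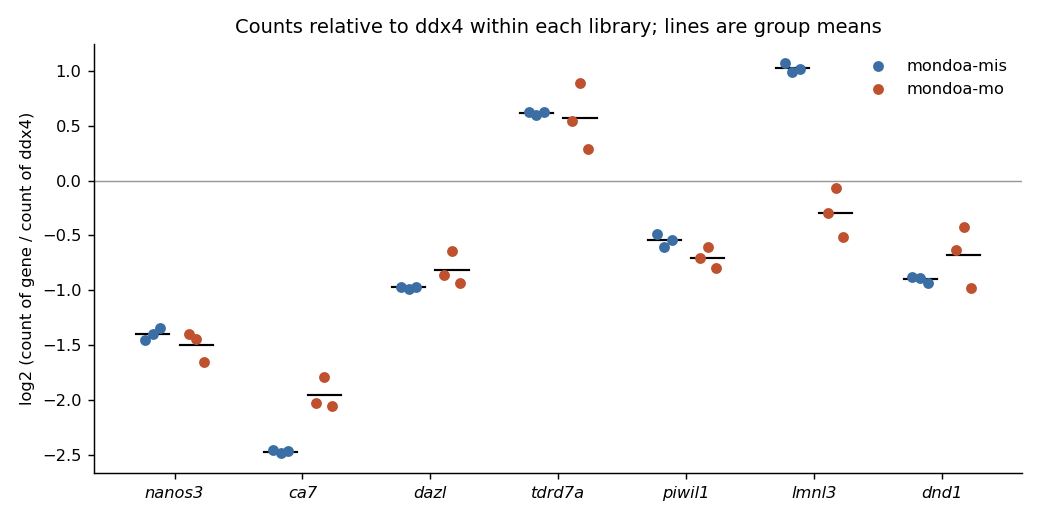
Log2 ratio of the count of each gene to the count of ddx4 in the same library (vertical axis) for 3 mondoa-mis (blue) and 3 mondoa-mo libraries (red), with black lines at the group means. The lmnl3 ratios drop from a mean of 1.03 to -0.29, while the tdrd7a ratios spread from 0.29 to 0.89 in mondoa-mo around a mean close to that of mondoa-mis.

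Levels of different genes were compared per length, as CPM per kb of the gene length in the deposited table. That is a single length per gene, which may differ from the length of the transcripts present. Places between genes, and the lamin shares below, depend on it. In mondoa-mis, tdrd7a had the highest level per length, 52.5 ± 0.218 CPM per kb. It was followed by ddx4 with 46.6 ± 0.624, nanos3 with 44.9 ± 1.82, lmnl3 with 41.0 ± 0.782 and dazl with 28.2 ± 0.106. The lowest were piwil1 with 13 ± 0.380 and ca7 with 12.9 ± 0.072 CPM per kb (SD, n = 3 libraries each). The neighbours ddx4 and nanos3 overlapped, as did piwil1 and ca7. In mondoa-mo, tdrd7a, ddx4 and nanos3 kept the first places with overlapping ranges, at 63.5 ± 6.96, 58.1 ± 6.69 and 52.4 ± 6.73 CPM per kb. The level per length of lmnl3 moved from the fourth to the sixth place, at 20.5 ± 1.55 CPM per kb, below dazl with 39.3 ± 1.21 and ca7 with 22.8 ± 0.543. The level of piwil1 was 14.6 ± 1.03 CPM per kb.

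**Figure D3:**
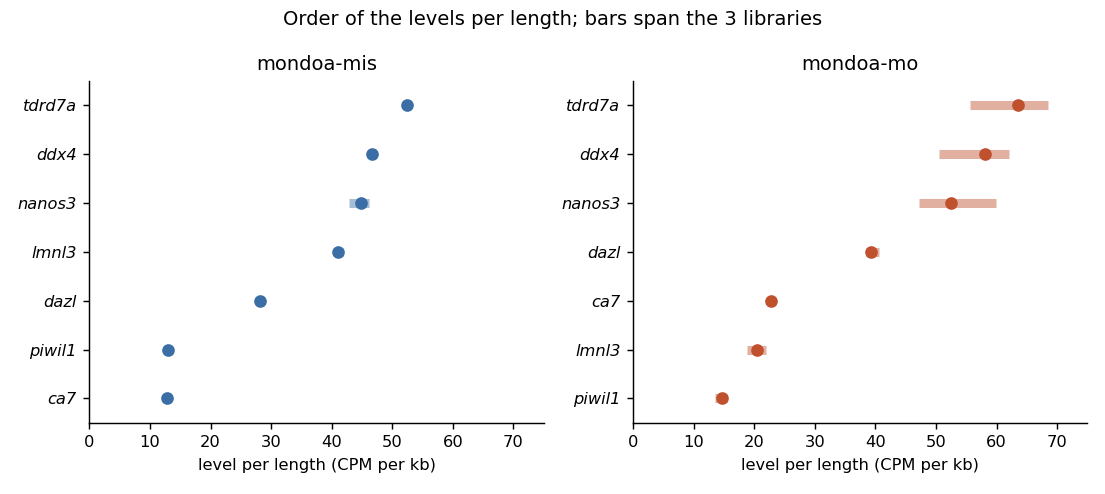
Members ordered by their level per length in CPM per kb (horizontal axis, from 0) in mondoa-mis (left) and mondoa-mo (right). Points are means and bars span the 3 libraries. The lmnl3 point moves from 41.0 to 20.5 CPM per kb and falls behind dazl and ca7.

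The wider set of germ plasm transcripts did not move one way. Of 17 germ plasm genes listed, 15 could be matched, to 16 identifiers, and 9 of these changed, 6 up and 3 down, a share of 56.2% beside the 32.3% of all genes. The median log2 fold change of the 16 was 0.10. The genes that fell were buc, buc2l and tdrd6. Bucky ball, encoded by buc, organizes the Balbiani body of the oocyte and the germ plasm, and its mRNA had 637, 633 and 641 CPM in mondoa-mis and 357, 416 and 316 CPM in mondoa-mo. All mondoa-mo libraries were far below the controls, with a log2 fold change of -0.81 (standard error 0.0811, adjusted p = 6e-05). The related gene buc2l fell by 0.34 on the log2 scale, from 161 ± 3.69 to 127 ± 12.4 CPM (adjusted p = 0.0031). The level of tdrd6, whose Tudor domain protein binds Bucky ball, was 187 ± 4.13 and 139 ± 32.9 CPM, with a log2 fold change of -0.42 (adjusted p = 0.028). This call was lost without any one of mondoa-mis replicates 1, 2 and 3 or mondoa-mo replicate 1, with adjusted p-values up to 0.088, and with the Wald test of DESeq2 (adjusted p = 0.097).

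Beside the members and dnd1, the germ plasm genes that rose were rbpms2b and celf1, which both encode RNA-binding proteins. The level of rbpms2b was 100, 103 and 105 CPM in mondoa-mis and 135, 172 and 151 CPM in mondoa-mo, a log2 fold change of 0.57 (adjusted p = 0.00038). That of celf1 was 317 ± 4.90 and 360 ± 16.9 CPM, with a log2 fold change of 0.18 (adjusted p = 0.013, but up to 0.074 without mondoa-mis replicate 2 or 3). The 7 identifiers that did not pass had log2 fold changes from -0.05 to 0.23, nanos3 included. Among them ca15b had 143 ± 6.36 and 154 ± 11.1 CPM (adjusted p = 0.20), and a hook2 identifier, ENSDARG00000099235, had 128 ± 1.04 and 136 ± 6.40 CPM (adjusted p = 0.18). The symbol hook2 belongs to another identifier as well.

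Of 18 listed genes of the piRNA pathway, which makes and uses the small RNAs bound by Piwi proteins, 15 were matched and 9 changed, 7 up and 2 down, a share of 60.0% beside the 32.3% of all genes tested, with a median log2 fold change of 0.16. Apart from ddx4 and tdrd7a, those that rose were henmt1, tdrd9, tdrkh, piwil2 and tdrd5. The methyltransferase gene henmt1, whose product protects the ends of piRNAs, had 5.03, 4.68 and 4.33 CPM in mondoa-mis and 7.937, 7.6 and 8.01 CPM in mondoa-mo, with a log2 fold change of 0.74 (adjusted p = 0.00079). Rises on the log2 scale were 0.27 for the helicase gene tdrd9, 0.25 for the Tudor gene tdrkh, 0.22 for piwil2 and 0.15 for tdrd5. The genes that fell were tdrd6 and rnf17, a Tudor domain gene whose level went from 91.6 ± 2.49 to 72.7 ± 4.92 CPM (log2 fold change -0.34, adjusted p = 0.0021). Among the 6 that did not pass, gtsf1 had 452 ± 4.72 and 480 ± 16.6 CPM (adjusted p = 0.14, and 0.045 without mondoa-mo replicate 2). Another, tdrd1, had 154 ± 4.38 and 160 ± 18.5 CPM (adjusted p = 0.57). The calls of piwil2 and tdrd5 were each lost without any one of the mondoa-mis libraries or mondoa-mo replicate 2, and that of piwil2 also without mondoa-mo replicate 3, with adjusted p-values up to 0.14 and 0.12. Both were also lost with library size alone as the normalization (adjusted p = 0.094 and 0.10). Only 5 genes of the list changed when any one mondoa-mis library was left out.

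**Figure D4:**
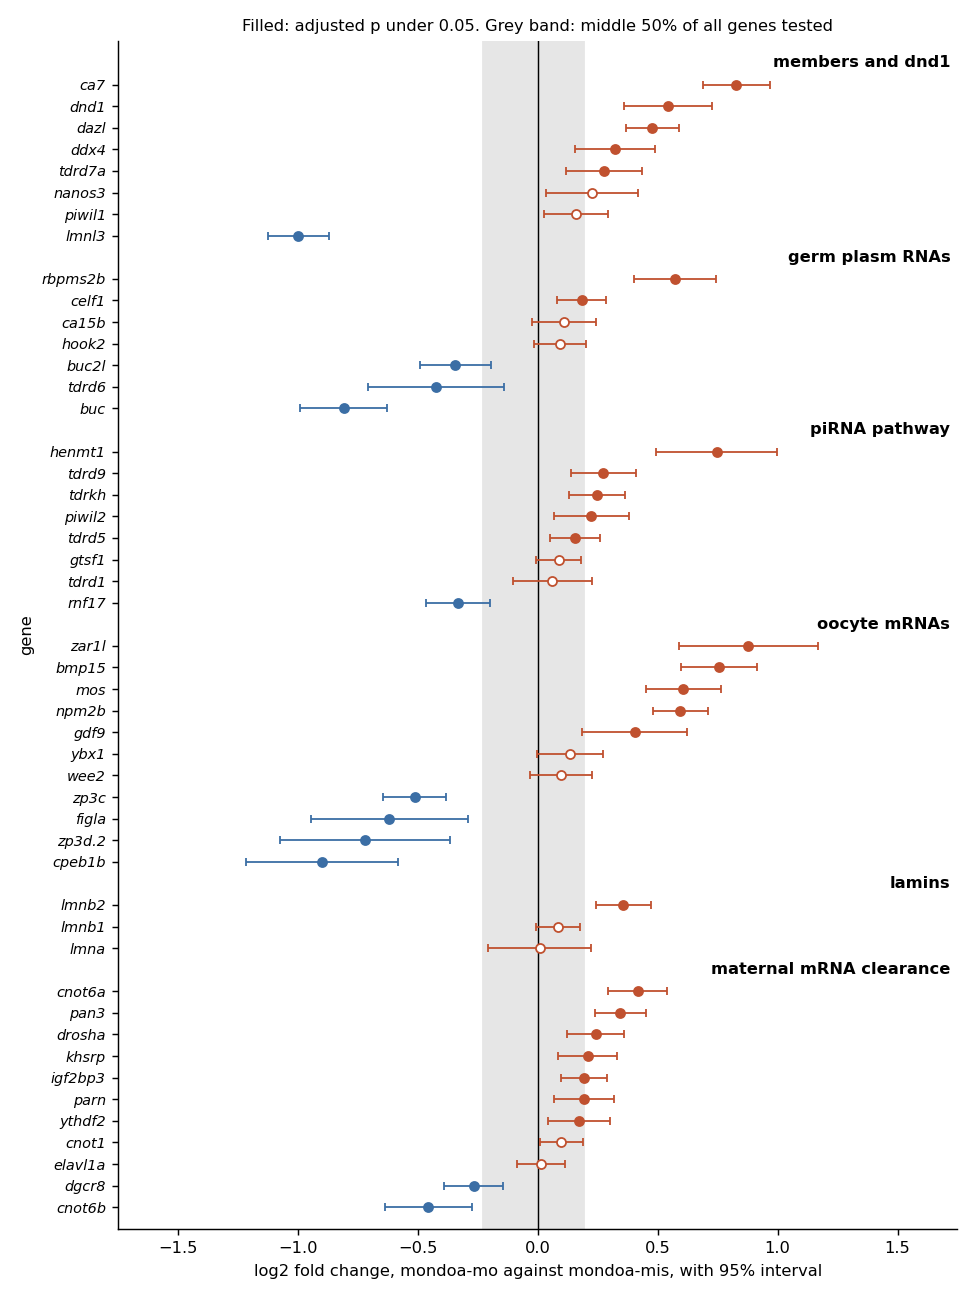
Log2 fold change of mondoa-mo against mondoa-mis (horizontal axis) with 95% intervals from edgeR for the members and dnd1 and for the other named genes of each list. Filled points had an adjusted p under 0.05, red lies above 0 and blue below, and the grey band is the interquartile range of all genes tested. The point of lmnl3 is at -1.0, opposite to the other members, and buc and cpeb1b fall on the same side.

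Maternal mRNAs of the oocyte were likewise split. Of 32 genes listed, 30 were matched and 16 changed, 10 up and 6 down, a share of 53.3% beside the 32.3% of all genes tested, with a median log2 fold change of 0.05. The largest rises were in zar1l, bmp15, mos, npm2b and gdf9. The level of zar1l, a relative of the maternal factor zar1, was 6.30, 8.42 and 7.89 CPM in mondoa-mis and 12.4, 13.8 and 15.4 CPM in mondoa-mo (log2 fold change 0.88, adjusted p = 0.00068). The oocyte growth factor gene bmp15 rose from 41.5 ± 2.06 to 70.0 ± 5.46 CPM (log2 fold change 0.75, adjusted p = 4.5e-05). Rises on the log2 scale were 0.61 for mos, the kinase gene that holds eggs in meiotic arrest, 0.59 for the nucleoplasmin gene npm2b and 0.40 for the growth factor gene gdf9. The call of gdf9 was lost without mondoa-mis replicate 1 or 2, with adjusted p-values up to 0.054.

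Beside lmnl3, the largest falls were in cpeb1b, zp3d.2, figla and zp3c, and pabpn1l, named after its values were seen, was the last of the 6. The mRNA of cpeb1b encodes a protein that controls cytoplasmic polyadenylation of maternal mRNAs. It had 310, 308 and 320 CPM in mondoa-mis and 148, 220 and 135 CPM in mondoa-mo, and although the mondoa-mo libraries differed, all were below the controls (log2 fold change -0.90, standard error 0.143, adjusted p = 0.001). The egg coat genes zp3d.2 and zp3c had log2 fold changes of -0.72 and -0.51 (adjusted p = 0.0066 and 0.00014), and the oocyte transcription factor gene figla of -0.62 (adjusted p = 0.0093). The egg coat genes of the list did not move one way. Of 8, 2 fell and 4 did not pass, while zp3d.1 and zp3a.2, named after their values were seen, rose by 0.29 and 0.26 on the log2 scale (adjusted p = 0.001 and 0.017). The mean level of pabpn1l was 141 and 127 CPM (log2 fold change -0.14, adjusted p = 0.046). Of the 14 that did not pass, wee2 had 570 ± 10.2 and 609 ± 53.0 CPM (adjusted p = 0.24). The level of ybx1 was 473 ± 4.05 and 518 ± 48.6 CPM (adjusted p = 0.13, and 0.0032 without mondoa-mo replicate 2).

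Within the lamin family, lmnl3 was the only gene that fell. The level of lmnb2 was 122, 124 and 122 CPM in mondoa-mis and 156, 149 and 166 CPM in mondoa-mo, and it rose by a log2 fold change of 0.36 (adjusted p = 0.00054). The most abundant lamin mRNA, lmnb1, had 813 ± 16.8 and 861 ± 30.0 CPM (adjusted p = 0.15), and lmna had 13.5 ± 0.534 and 13.6 ± 1.29 CPM (adjusted p = 0.96). Of the summed level of the 4 lamins per length, lmnl3 held 14.7%, 14.7% and 14.7% in the mondoa-mis libraries and 7.61%, 7.72% and 6.80% in the mondoa-mo libraries. The share of lmnb1 was 76.5 ± 0.187% and 81.4 ± 0.122%, and that of lmnb2 was 8.25 ± 0.186% and 10.6 ± 0.569% (SD, n = 3 libraries each). The groups did not overlap for these 3 shares (exact permutation p = 0.1, the smallest possible). The shares are parts of the same sum, so a lower share of lmnl3 raises those of the others, and they are not separate results.

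Genes tied to the clearance or the stability of maternal mRNAs were followed as a separate list, called the clearance list. It includes igf2bp3 and elavl1a, whose products stabilize maternal mRNAs, so a rise within it is not a rise of clearance. Of 27 genes, 25 were matched and 9 changed, 7 up and 2 down, with a median log2 fold change of 0.08. This share of 36.0% was near the 32.3% of all genes tested and is no result about the list. The higher shares of the germ plasm, piRNA pathway and oocyte lists were not tested as sets or set against genes of like level. Those lists include members, and the germ plasm and piRNA pathway lists share ddx4, tdrd7a, tdrd6 and asz1. All lists were chosen with earlier results of these data known. The paralogous deadenylase genes cnot6a and cnot6b moved in opposite directions. The level of cnot6a was 531.8, 534.9 and 512.3 CPM in mondoa-mis and 659, 763 and 686 CPM in mondoa-mo (log2 fold change 0.42, adjusted p = 0.00035). That of cnot6b was 102, 104 and 101 CPM and 66.6, 85.6 and 72.6 CPM (log2 fold change -0.46, adjusted p = 0.0019). The pair of genes whose products act together in microRNA processing in the nucleus also split, with log2 fold changes of 0.24 for drosha and -0.27 for dgcr8 (adjusted p = 0.007 and 0.0042).

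The other genes of the clearance list that rose were pan3, with a log2 fold change of 0.34, and khsrp, igf2bp3, parn and ythdf2, between 0.17 and 0.21. The last 4 lost their calls when one library was left out. These libraries were mondoa-mis replicate 2 for igf2bp3, any mondoa-mis library for khsrp, any mondoa-mis library or mondoa-mo replicate 2 for parn, and any mondoa-mis library or mondoa-mo replicate 1 or 3 for ythdf2. The adjusted p-values of igf2bp3, khsrp, parn and ythdf2 then reached 0.055, 0.075, 0.11 and 0.19. With library size alone, parn and ythdf2 did not pass either (adjusted p = 0.076 and 0.12). Without mondoa-mis replicate 2, 5 genes of the list changed. The scaffold gene cnot1 had 632 ± 15.5 and 676 ± 11.0 CPM (adjusted p = 0.087), and elavl1a had 478 ± 4.99 and 482 ± 22.7 CPM (adjusted p = 0.88).

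**Figure D5:**
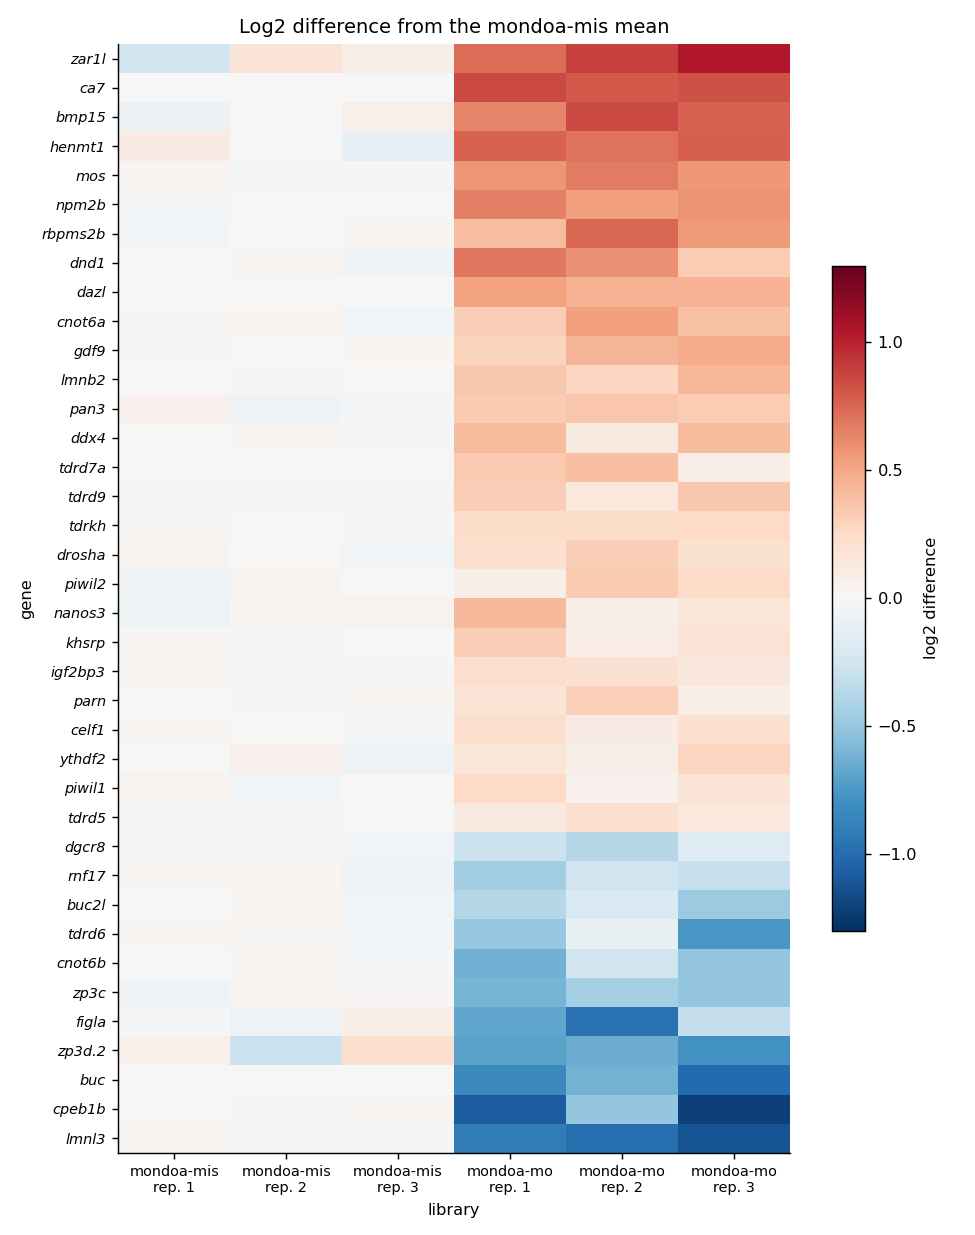
Log2 difference of each library (columns) from the mean of the mondoa-mis libraries for the members, dnd1 and the named genes that changed (rows, ordered by their mean in mondoa-mo). Red is higher and blue is lower. The lmnl3 row is the lowest, and cpeb1b, buc and tdrd6 are paler in mondoa-mo replicate 2 than in the other mondoa-mo libraries.

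The profile of each member over the 6 libraries was compared with those of 8747 other genes that had a symbol and a mean of at least 10 CPM. These correlations rest on 6 libraries that fall into 2 groups, and they are descriptions. For lmnl3 the most similar genes were notch1a and oclnb (Pearson r = 0.9995 and 0.9992), but 96 genes exceeded 0.99. For dazl they were cfl1 and pargl (r = 0.9996 and 0.9991), with 160 such genes, and for ca7 they were cul1b and ipo9 (r = 0.9996 and 0.9994), with 178. The uneven profiles had fewer counterparts. The most similar genes were rabl6 and plxnb2b for ddx4 (r = 0.9987 and 0.9952), pacs1 and zfyve9 for nanos3 (r = 0.997 and 0.9945), and homer3b and btaf1 for tdrd7a (r = 0.9969 and 0.9965), with 13, 3 and 7 genes above 0.99. For piwil1, the second most similar gene was eif3a (r = 0.9979) after a gene known by a clone name, and for dnd1 they were prdx1 and srprb (r = 0.9988 and 0.9985).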

How the data were processed

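RNA was measured in 3 mondoa-mis and 3 mondoa-mo libraries, grouped by their sample titles. The authors made TruSeq mRNA libraries, which sample polyadenylated RNA, mapped read pairs to GRCz11 with STAR 2.3.8 and deposited raw counts of uniquely mapped pairs per Ensembl gene, with a gene length. Whether strand was used is not given in the sources used here, so genes overlapping on opposite strands are uncertain, and pairs shared by near-identical paralogs were not counted.

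The tests used edgeR 4.0.16 under R 4.3.3 (filterByExpr, TMM, quasi-likelihood test, Benjamini-Hochberg adjustment over all genes tested, threshold 0.05). The standard error is the log2 fold change divided by the root of the F statistic. DESeq2 1.42.0 and limma 3.58.1 (voom) served as alternatives, beside other normalizations and filters, a replicate block and each library left out. Symbols came from the gene name table (28986 identifiers) and the study's annotation (3762), with 29046 identifiers named in all. A list symbol that neither held was looked up among the synonyms of the RefSeq gene table and kept where it led to a single symbol. List genes still without an identifier were not analysed here.

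The members and lists were chosen with earlier results of these data known. Named genes are the members, dnd1, those of each list that changed (where over 10 changed, the 5 largest rises and 5 largest falls), the 2 most abundant that did not, and the 2 most similar profiles. The study calls its replicates biological without saying whether they came from separate clutches, so p-values measure only the spread between these libraries.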

Additional observations from a re-analysis of the deposited data

How the results depend on the processing

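Over 7 other settings and 6 fits that each left out a library, no log2 fold change of a member or of dnd1 changed sign, and the calls of ddx4, ca7, dazl, lmnl3 and dnd1 held in all 13. The call of tdrd7a was lost in 4 fits without a library (log2 fold change from 0.21 to 0.36 over the 6). Beyond the fits without a library (0.12 to 0.29), nanos3 passed with all genes of at least 1 count tested (0.23, adjusted p = 0.038) and with voom and group weights (0.23, adjusted p = 0.032). Beyond its own such fits (0.11 to 0.20), piwil1 passed with voom (0.16) and with the replicate block (0.16). The numbers were not taken to pair the libraries, since same-numbered libraries correlated in their deviations from the group means by only 0.059, 0.032 and 0.044, although each correlated best with its own number. With the block, 5281 genes and 6 members changed. Fits without a library gave 3119 to 5832 genes changed, 1632 to 3039 higher and 1487 to 2793 lower. They gave 4 to 6 members, 5 to 8 piRNA pathway genes and 5 to 11 genes of the clearance list. The 3 fits without a mondoa-mis library gave the lowest numbers of genes. With library size alone, 42.7% of changed genes were higher, against 52.2% with TMM. Against the geometric mean of the members instead of ddx4, the differences were 0.036 for nanos3, 0.65 for ca7, 0.30 for dazl, -0.023 for piwil1 and 0.09 for tdrd7a, whose sign turned as that of nanos3 did. Among other named genes, signs changed for tdrd1 (-0.034 without mondoa-mo replicate 2, up to 0.139 without another library), lmna (-0.036 with library size alone, and from -0.075 without mondoa-mo replicate 1 to 0.051 with a library left out, negative also without mondoa-mis replicate 3) and elavl1a (-0.031 with library size alone, and from -0.028 without mondoa-mo replicate 3 to 0.027), none of them called in any of these fits. The cause of these differences was not tested. The interval of nanos3, from 0.03 to 0.42, gives the precision that 3 libraries a group allowed for this gene, at 1094 to 2110 counts a library. It does not carry over to other genes of like counts. With 502 to 1363 counts a library, ca7 had a narrower interval, from 0.69 to 0.97. The SD of log2 CPM in mondoa-mo was 0.181 for nanos3 and 0.0343 for ca7, the latter below counting noise and so not a trait of the gene.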
